A study of Mus musculus with 2 samples.

Results

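The platelet-derived growth factor (PDGF) receptor genes Pdgfra and Pdgfrb and the ligand genes Pdgfa, Pdgfb, Pdgfc and Pdgfd were followed across the cells of mouse plantaris muscle after tenotomy. These 6 genes were taken by name out of 32285 genes counted, and all 6 had transcripts in both libraries. In 5 male C57BL/6 mice of 12 weeks, one side had tenotomy and the other side served as sham control. The plantaris was taken from both sides. After 4 days the muscles of each side were pooled for collagenase digestion, and cells sorted for Calcein AM staining without propidium iodide, that is, living cells, gave 1 droplet library per side. Both libraries therefore come from the same mice and hold mononuclear cells only, so most myofibre RNA is not sampled. The labels name no transgene or drug. The tendon operated on is not stated in the labels, so they do not say whether the plantaris itself was cut.

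PDGFs are secreted dimers that act through a pair of receptor tyrosine kinases. Receptor alpha, from Pdgfra, marks the fibro-adipogenic progenitors of skeletal muscle, mesenchymal cells that lay down matrix after injury, and it binds dimers of the A chain and of the C chain. Receptor beta, from Pdgfrb, marks pericytes, which are recruited to vessels by the B chain that endothelium makes. Dimers of the D chain act mainly through receptor beta, and the C and D chains must be cleaved by proteases before they are active.

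Because each group is 1 pooled library, the samples allow no test between groups, and treatment cannot be told apart from library. Values in brackets are 95% intervals that cover counting error only. A level is given as CPM, the unique molecular identifiers (UMIs) of the gene scaled by all UMIs of the population to a fixed total. A fold is the tenotomy CPM over the sham CPM, taken where a population had at least 50 cells in each library. A gene counted as measured where it reached 50 CPM, from 25 or more UMIs, in the library where it was higher.

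After filtering, 10917 tenotomy and 7548 sham cells were kept, with a median of 5859 and 4851 UMIs per cell. Among the kept cells, 29 cell barcodes occurred in both libraries. Marker gates that use none of the 6 genes placed 93.2% of tenotomy and 93.1% of sham cells, and each population name stands for cells like those named. Mesenchymal cells, gated on matrix genes such as Dcn, Lum and Col1a1, numbered 1767 in the tenotomy and 1931 in the sham library, with median depths of 14265 UMIs in tenotomy and 8396 UMIs in sham. The libraries filled different states of this lineage. The Postn/Tnc state held 652 tenotomy and 4 sham cells, and mesenchymal cells with cycle transcripts numbered 470 in tenotomy and 1 in sham. The Smoc2/Cxcl14 state held 166 tenotomy and 1079 sham cells, the Pi16/Dpp4 state 202 in tenotomy and 382 in sham, and the Gdf10/Sfrp4 state 88 in tenotomy and 158 in sham. Of all mesenchymal cells, 25% lay near the limit between states. There were 107 tenotomy and 203 sham pericytes, with median depths of 3550 UMIs in tenotomy and 4611 UMIs in sham, and 174 in tenotomy and 381 in sham tenocytes. Blood endothelial cells numbered 1541 in tenotomy and 3257 in sham, with medians of 3109 UMIs in tenotomy and 3464 UMIs in sham. Monocytes and macrophages numbered 4779 in tenotomy and 435 in sham, and muscle stem cells 348 in tenotomy and 424 in sham, with medians of 14804.5 UMIs in tenotomy and 6058.5 UMIs in sham in the stem cells.

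Neutrophils, which are not known to make PDGF receptors, served as a guide to UMIs that free RNA or mixed cells can bring. These sources were not told apart. In 505 tenotomy and 75 sham neutrophils, with median depths of 2068 UMIs in tenotomy and 3387 UMIs in sham, Pdgfra was at 2.47 CPM (0.801 to 5.76) in tenotomy and 30.6 CPM (16.7 to 51.4) in sham, and Pdgfrb at 0.987 CPM in tenotomy and 4.37 CPM in sham. The sham Pdgfra value came from 14 UMIs, with a UMI in 5.33% of the sham neutrophils. Sham blood endothelial cells had Pdgfra at 4.81 CPM. The ligand genes Pdgfa, Pdgfb and Pdgfc lay between 0.987 and 8.39 CPM in tenotomy neutrophils and at 2.19 CPM each in sham neutrophils. Pdgfd had 0 UMIs in both, which allows up to 1.48 CPM in tenotomy and 6.56 CPM in sham. None of the 6 genes counted as measured in neutrophils, where 16% of genes were at least 2-fold higher in the tenotomy library and 3.33% at least 2-fold lower.

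The 6 genes were carried by different cells. Of all Pdgfra UMIs, 94.4% (93.7 to 95.1) in the tenotomy and 94.1% (93.6 to 94.6) in the sham library lay in mesenchymal cells. Of the Pdgfrb UMIs, mesenchymal cells held 65.6% in the tenotomy and 45.5% in the sham library, and pericytes 12.0% in tenotomy and 23.3% in sham. Blood endothelial cells held 53.2% of the Pdgfb UMIs in the tenotomy and 86.7% in the sham library, while monocytes and macrophages held 26.8% in tenotomy and 3.50% in sham. Both vessel-associated ligands thus lay mainly in endothelium. For Pdgfd the endothelial shares were 52.7% in the tenotomy and 74.4% in the sham library, and the mesenchymal shares 33.5% in tenotomy and 8.61% in sham. Pdgfc was split in both libraries between mesenchymal cells, at 59.4% in tenotomy and 46.9% in sham, and monocytes and macrophages, at 29.8% in tenotomy and 31.0% in sham. Pdgfa was spread over many populations. In the tenotomy library its UMIs lay in monocytes and macrophages (28.5%), mesenchymal cells (28.4%), muscle stem cells (16.6%) and blood endothelium (9.96%). In the sham library the same populations held 6.74%, 4.85%, 6.89% and 11.2%. Tenocytes held 3.04% of the Pdgfa UMIs in the tenotomy and 38.3% in the sham library, and Schwann cells 1.51% in tenotomy and 14.1% in sham. Such shares depend on how many cells of each kind were sorted, as well as on the level per cell.

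**Figure D1:**
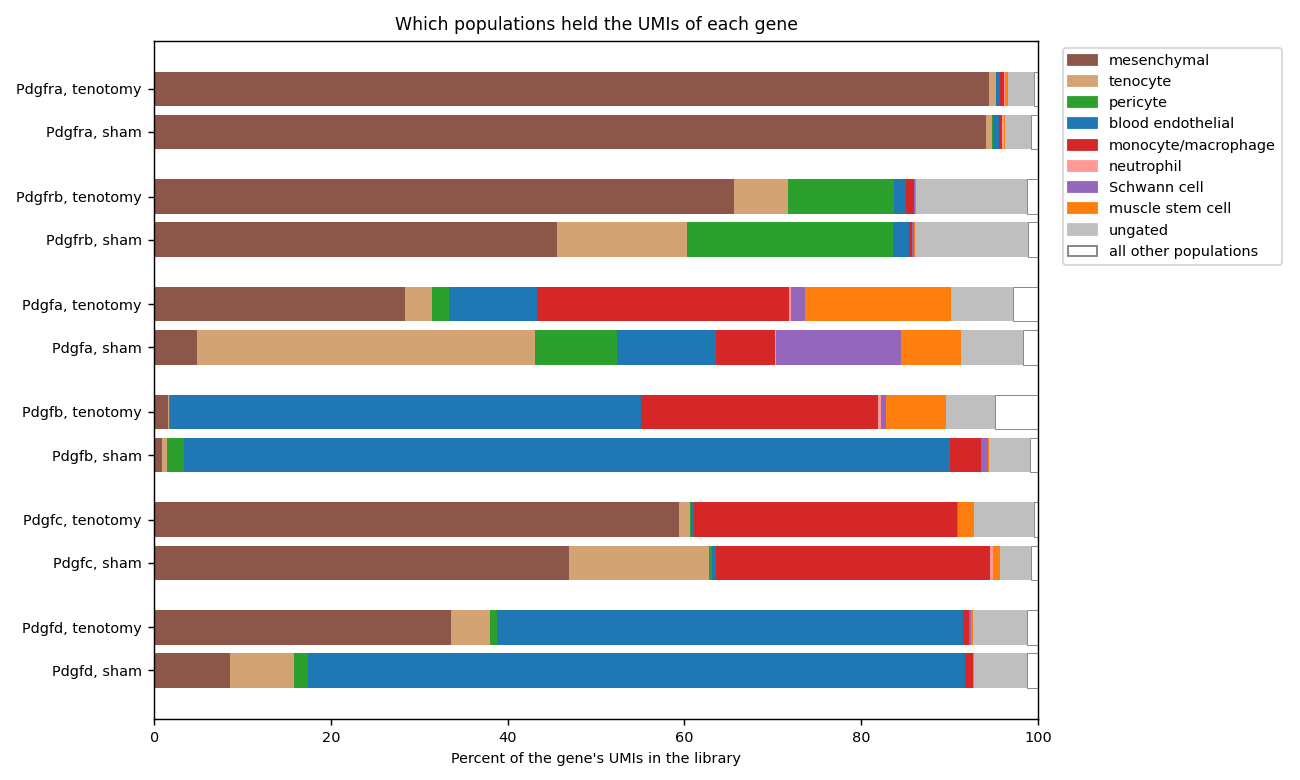
Share of the UMIs of each gene held by each population, in percent of the gene's UMIs among kept cells of the library, with the tenotomy bar above the sham bar. Pdgfra lay almost wholly in mesenchymal cells of both libraries (94.4% in tenotomy and 94.1% in sham), while Pdgfa was divided among many populations in the tenotomy library and led by tenocytes (38.3%) in the sham library.

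Pdgfra, the receptor gene that defines muscle mesenchymal progenitors (ENSMUSG00000029231, mm10 chromosome 5, 75152292 to 75198215, forward strand), was lower in the tenotomy library in all mesenchymal states that both libraries held. Over all mesenchymal cells it stood at 123 CPM (119 to 127) in the tenotomy and 506 CPM (495 to 517) in the sham library, a fold of 0.244 (0.235 to 0.254). The 250 bases before its RefSeq transcription start (GRCm38.p6, chr5:75152001-75152250, forward strand, 54.4% G or C) are shown because this receptor gene differed most between the libraries. None of these bases is exon in the GENCODE annotation. They hold none of 3 motifs searched on both strands, the GC box GGGCGG, the TATA box TATAAA and the AP-1 site TGACTCA, which 32.7%, 12.4% and 4.46% of 32817 mouse promoter windows of this length hold.
Pdgfra: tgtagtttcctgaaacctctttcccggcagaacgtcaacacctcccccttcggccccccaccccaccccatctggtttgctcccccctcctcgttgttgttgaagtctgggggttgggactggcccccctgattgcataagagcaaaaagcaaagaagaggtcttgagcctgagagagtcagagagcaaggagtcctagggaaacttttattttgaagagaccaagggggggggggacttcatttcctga

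Within states the folds in CPM were nearer to 1 than over the whole lineage. Smoc2/Cxcl14 cells, an interstitial state, had 279 CPM (249 to 312) in the tenotomy and 554 CPM (539 to 571) in the sham library, a fold of 0.503 (0.447 to 0.565). Pi16/Dpp4 cells, which resemble adventitial fibroblasts of other organs, had 176 CPM (158 to 197) in the tenotomy and 393 CPM (374 to 413) in the sham library, a fold of 0.449 (0.397 to 0.507). Gdf10/Sfrp4 cells had 191 CPM (161 to 226) in the tenotomy and 530.4 CPM (492 to 571) in the sham library, a fold of 0.361 (0.299 to 0.433). In each of these states the tenotomy interval lay below the sham interval. In the states that the tenotomy library held almost alone, Pdgfra stood at 117 CPM (111 to 123) in Postn/Tnc cells, a state marked by matrix and wound genes, and at 98.5 CPM (93.1 to 104) in cycling cells. The Postn/Tnc level was 0.418 (0.370 to 0.475) times the Smoc2/Cxcl14 level of the same library, and the cycling level 0.843 (0.781 to 0.911) times the Postn/Tnc level. The order in CPM in the tenotomy library was thus Smoc2/Cxcl14, then Gdf10/Sfrp4 and Pi16/Dpp4, whose intervals overlapped, then Postn/Tnc, then cycling. Counted per cell, cycling and Postn/Tnc cells came first instead, with 2.70 UMIs in cycling, 2.16 in Postn/Tnc, 1.84 in Smoc2/Cxcl14, 1.60 in Gdf10/Sfrp4 and 1.58 in Pi16/Dpp4 cells. A UMI was seen in 83.6% of cycling, 72.2% of Postn/Tnc and 74.1% of Smoc2/Cxcl14 cells, and at 1000 UMIs per cell in 10.7% (8.02 to 13.8), 14.2% (11.6 to 17.2) and 18.9% (13.2 to 25.7) of them. In the sham library Smoc2/Cxcl14 and Gdf10/Sfrp4 overlapped in CPM, and Pi16/Dpp4 was lower.

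CPM divides by all UMIs of the cells, and tenotomy mesenchymal cells held more of them. Counted per cell, Pdgfra averaged 2.07 UMIs in tenotomy and 4.20 UMIs in sham mesenchymal cells, a ratio of 0.493, nearer to 1 than the fold in CPM. The ratio per cell was 0.428 in Smoc2/Cxcl14, 0.390 in Pi16/Dpp4 and 0.364 in Gdf10/Sfrp4 cells. Pdgfra was thus lower on both scales. A UMI of it was seen in 72.2% (70.0 to 74.2) of tenotomy and 90.7% (89.3 to 91.9) of sham mesenchymal cells, against 0.990% of tenotomy and 5.33% of sham neutrophils. With every cell thinned to 1000 UMIs the shares were 14.5% (12.9 to 16.2) in tenotomy and 38.3% (36.1 to 40.5) in sham, against 0.450% of tenotomy and 2.90% of sham neutrophils. By state the thinned shares were 18.9% in tenotomy and 39.1% in sham Smoc2/Cxcl14 cells, 18.9% in tenotomy and 32.2% in sham Pi16/Dpp4 cells, and 12.8% in tenotomy and 43.0% in sham Gdf10/Sfrp4 cells. Equal depth therefore left the order of the libraries the same in each. Tenocytes, the cells of tendon, had only 20.2 CPM in the tenotomy and 17.8 CPM in the sham library. The sham value was below that of sham neutrophils, which rests on 14 UMIs. In the tenotomy library the tenocyte value was above the 2.47 CPM of neutrophils. A UMI was seen in 13.8% of tenotomy and 12.6% of sham tenocytes, and at 1000 UMIs per cell in 1.17% of tenotomy and 2.65% of sham tenocytes.

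Among genes measured in mesenchymal cells, 15.9% were past 2-fold upwards in the tenotomy library, that is, at least 2-fold higher, and 15.9% were past 2-fold downwards. Of the 3 members measured there, Pdgfa was past 2-fold upwards, Pdgfra downwards, and Pdgfrb neither. Pdgfra was also past 2-fold downwards in Pi16/Dpp4 cells, as were 6.5% of genes, with 6.36% past it upwards, and in Gdf10/Sfrp4 cells, as were 6.07%. In Smoc2/Cxcl14 cells, where 5.69% of genes were past 2-fold upwards and 5.85% downwards, it was 1.99-fold lower (1.77 to 2.24) and so just within the limit.

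**Figure D2:**
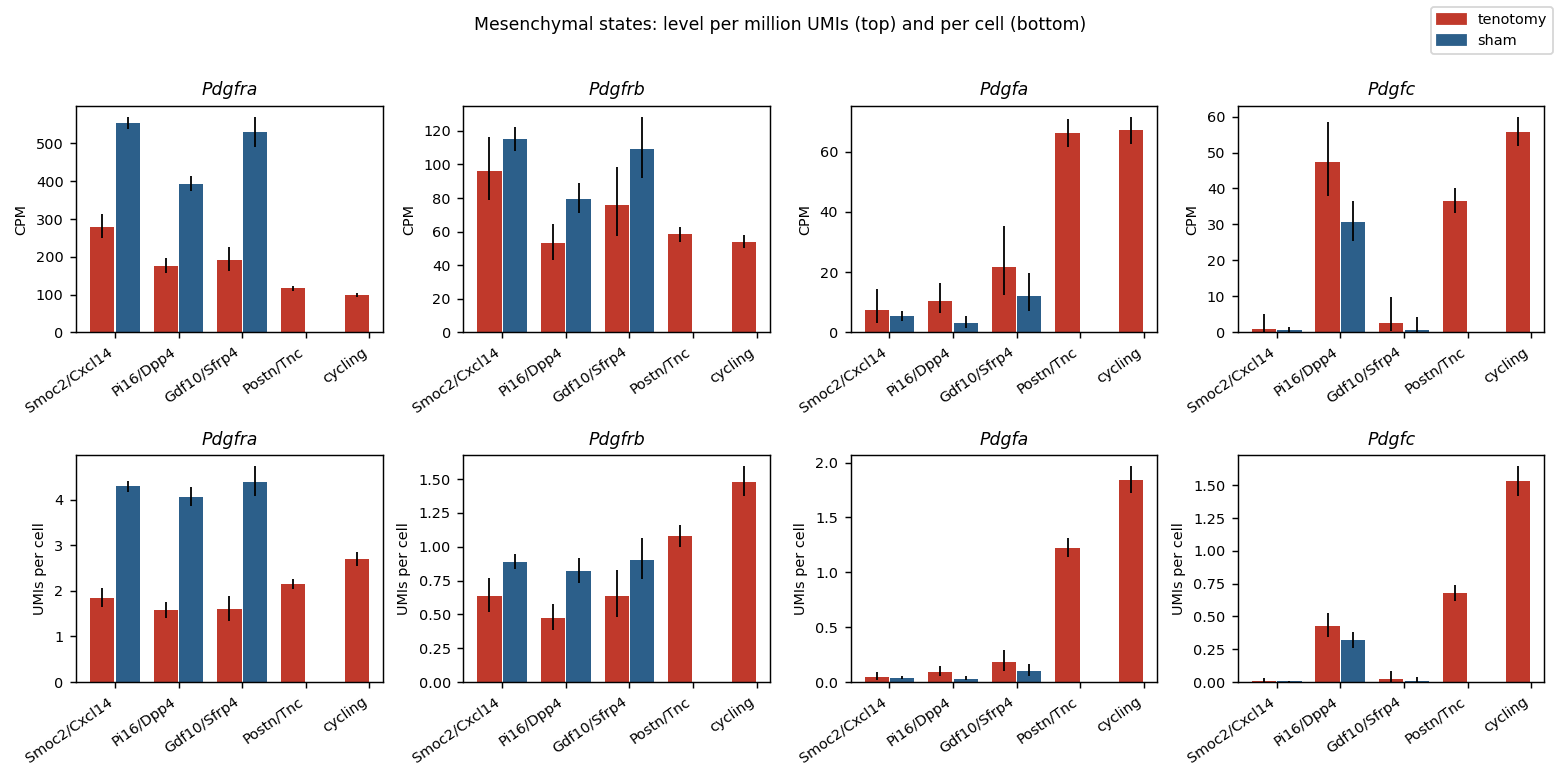
Pdgfra, Pdgfrb, Pdgfa and Pdgfc in 5 mesenchymal states, as CPM (top) and UMIs per cell (bottom), tenotomy bars left of sham bars, with 95% Poisson intervals; states with under 25 cells in a library have no bar for it. Pdgfra was lower in the tenotomy library on both scales in the 3 states that have both bars, and Pdgfa stood at 66.2 and 67.1 CPM in Postn/Tnc and cycling cells.

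Pdgfrb, the receptor gene of mural cells (ENSMUSG00000024620, mm10 chromosome 18, 61045150 to 61085061, forward strand), was highest in pericytes among populations with at least 25 cells, in both libraries. Pericytes had 666 CPM (595 to 743) in the tenotomy and 793 CPM (740.1 to 848) in the sham library, a fold of 0.841 (0.737 to 0.957). A UMI was seen in 86.9% of tenotomy and 92.6% of sham pericytes, and at 1000 UMIs per cell in 54.3% (44.3 to 64.0) of tenotomy and 58.5% (51.3 to 65.4) of sham cells. Pericytes of both libraries thus carried the gene, with overlapping shares at equal depth. In neutrophils the unthinned shares were 0.396% in tenotomy and 2.67% in sham. Neither Pdgfrb nor Pdgfa, the members measured in pericytes, was past 2-fold, while 8.54% of genes were past it upwards and 11.8% downwards. The pericyte level was 11.3 (10.03 to 12.8) times the mesenchymal level in the tenotomy and 7.66 (7.05 to 8.33) times in the sham library.

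In mesenchymal cells the direction for Pdgfrb depended on the scale. It stood at 58.8 CPM (56.0 to 61.6) in the tenotomy and 103 CPM (98.5 to 109) in the sham library, a fold of 0.568 (0.531 to 0.608), but at 0.986 UMIs per tenotomy cell and 0.859 UMIs per sham cell, a ratio of 1.15. By state the folds were 0.836 (0.676 to 1.02) in Smoc2/Cxcl14, 0.666 (0.524 to 0.840) in Pi16/Dpp4 and 0.696 (0.502 to 0.955) in Gdf10/Sfrp4 cells, and the ratios per cell 0.710, 0.578 and 0.703. Within the states that both libraries held, these values were below 1 on both scales, but in Smoc2/Cxcl14 cells the interval in CPM included 1. Postn/Tnc cells had 58.3 CPM and 1.08 UMIs per cell, and cycling cells 54.0 CPM and 1.48 UMIs per cell, in the tenotomy library. Tenocytes had 101 CPM (86.4 to 118) in the tenotomy and 144 CPM (132 to 157) in the sham library, a fold of 0.702 (0.585 to 0.839). The tenocyte level was 1.73 (1.46 to 2.03) times the mesenchymal one in the tenotomy and 1.40 (1.26 to 1.54) times in the sham library. For Pdgfra the same ratio was 0.163 (0.112 to 0.231) in tenotomy and 0.0351 (0.0271 to 0.0447) in sham, so the receptors parted between these neighbouring stromal cells. Blood endothelial cells, at 5.64 CPM in tenotomy and 5.47 CPM in sham, and monocytes and macrophages, at 0.745 CPM in tenotomy and 3.74 CPM in sham, lay far below.

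The share of cells with UMIs of both receptors was 39.7% (37.4 to 42.1) in tenotomy and 47.9% (45.6 to 50.1) in sham mesenchymal cells. Pdgfra alone was seen in 32.4% of tenotomy and 42.8% of sham cells, Pdgfrb alone in 11% of tenotomy and 2.38% of sham cells, and neither in 16.9% of tenotomy and 6.94% of sham cells. At 1000 UMIs per cell, Pdgfrb alone was seen in 4.49% of tenotomy and 5.76% of sham mesenchymal cells, and both in 1.5% (0.979 to 2.18) of tenotomy and 2.75% (2.06 to 3.59) of sham cells. The larger unthinned share of mesenchymal cells with Pdgfrb alone after tenotomy was not seen at equal depth, but this comparison cannot settle it. At 1000 UMIs Pdgfra was seen in only 14.5% of tenotomy and 38.3% of sham cells. The thinned share with Pdgfrb alone therefore mostly follows that with any Pdgfrb, 5.98% in tenotomy and 8.51% in sham. In pericytes Pdgfrb alone was seen in 86.0% of tenotomy and 90.1% of sham cells, and both receptors in 0.935% of tenotomy and 2.46% of sham cells. Tenocytes had Pdgfrb alone in 40.8% of tenotomy and 52.8% of sham cells, and both in 10.9% of tenotomy and 8.92% of sham cells. In neutrophils both were seen in 0.198% of tenotomy and 1.33% of sham cells.

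**Figure D3:**
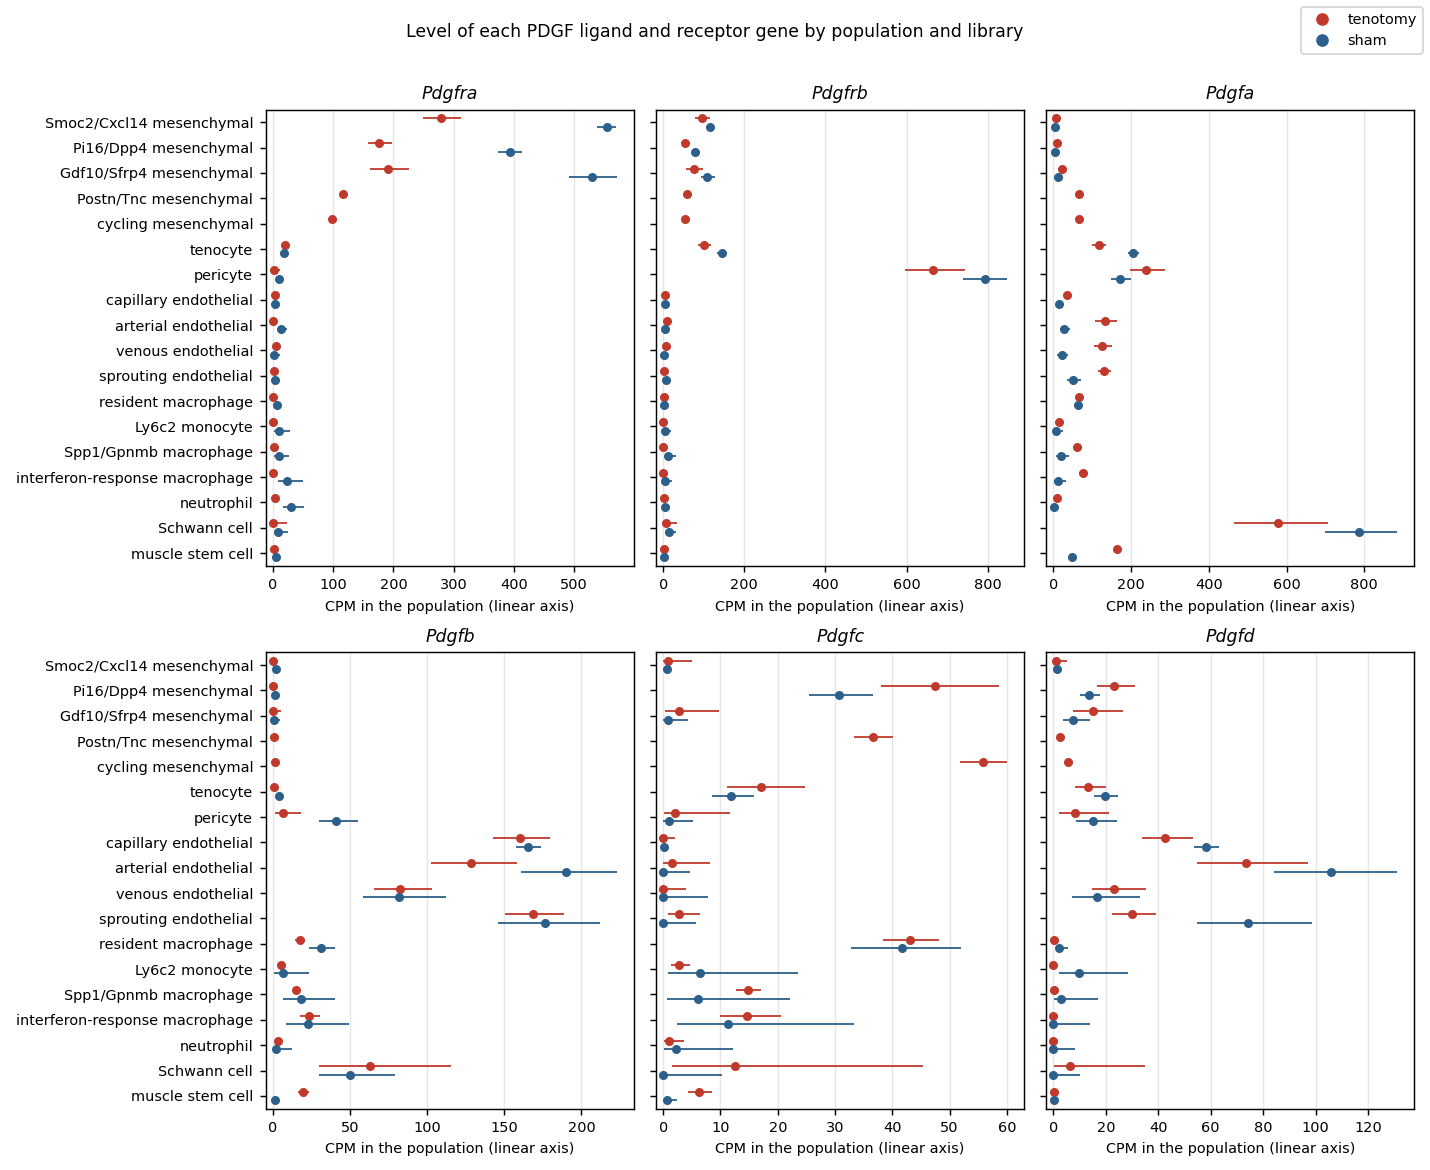
CPM of each gene (linear axis, scaled per panel) by population with 95% Poisson intervals, tenotomy point above the sham point; a population with under 25 cells in a library has no point for it. Pdgfra stands out in the mesenchymal states, Pdgfrb in pericytes, Pdgfb and Pdgfd in endothelium, Pdgfc in Pi16/Dpp4, Postn/Tnc and cycling mesenchymal cells and resident macrophages, and Pdgfa in Schwann cells.

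Pdgfa, the gene of the A chain, which signals through receptor alpha (ENSMUSG00000025856, mm10 chromosome 5, 138976014 to 138997370, reverse strand), was higher in the tenotomy library in mesenchymal cells, endothelium and muscle stem cells, and lower in tenocytes. RefSeq gives 2 promoter windows of 250 bases. The one farther upstream (GRCm38.p6, chr5:138994945-138995194, reverse strand, 72.4% G or C) lies inside the gene span, and 93 of its bases are exon of a longer transcript in the GENCODE annotation. The 157 bases before that exon, chr5:138995038-138995194, are shown because Pdgfa differed in more populations than the other ligand genes, and part of them lies opposite an antisense exon. The whole window has 2 matches to the GC box, both in its exon bases, and neither the TATA box nor the AP-1 letters.
Pdgfa: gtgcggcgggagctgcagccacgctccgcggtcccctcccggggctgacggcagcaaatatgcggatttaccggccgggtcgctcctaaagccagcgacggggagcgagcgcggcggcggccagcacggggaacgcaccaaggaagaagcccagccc

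Mesenchymal cells had 58.2 CPM (55.5 to 61.0) in the tenotomy and 6.05 CPM (4.90 to 7.38) in the sham library, a fold of 9.63 (7.85 to 11.9), and 0.977 UMIs per tenotomy cell and 0.0502 UMIs per sham cell, a ratio of 19.5. A UMI was seen in 31.2% of tenotomy and 3.63% of sham cells. At 1000 UMIs per cell the shares were 4.14% (3.26 to 5.19) in tenotomy and 0.845% (0.484 to 1.37) in sham, and the fold of the thinned level was 5.58. Of the thinned neutrophils 0 were positive in both libraries, which allows shares of up to 0.676% in tenotomy and 4.35% in sham. The higher level lay with states that the sham library hardly held, at 66.2 CPM (61.7 to 70.9) in Postn/Tnc and 67.1 CPM (62.7 to 71.7) in cycling cells. The states that both libraries held were low in both. Smoc2/Cxcl14 cells had 7.32 CPM in tenotomy and 5.26 CPM in sham, a fold of 1.39 (0.565 to 2.99), Pi16/Dpp4 cells 10.5 CPM in tenotomy and 3.04 CPM in sham, a fold of 3.45 (1.59 to 7.79), and Gdf10/Sfrp4 cells 21.7 CPM in tenotomy and 12.2 CPM in sham, a fold of 1.78 (0.833 to 3.80). Within the tenotomy library the Postn/Tnc level was 9.04 (4.57 to 21.0) times the Smoc2/Cxcl14 level. The 15 macrophage markers, all with UMIs, summed to 599 CPM in tenotomy and 85.3 CPM in sham mesenchymal cells, 2.12% in tenotomy and 0.323% in sham of their sum in macrophages. The 9 vascular smooth muscle markers, 7 with UMIs in each library, summed to 1254 CPM in tenotomy and 23.4 CPM in sham mesenchymal cells, 12.1% in tenotomy and 0.0756% in sham of their sum in vascular smooth muscle cells, which numbered 12 in tenotomy and 11 in sham. Rergl had 0 UMIs in both libraries, Pln in tenotomy and Actg2 in sham, and the part of these markers in the Pdgfa fold was not tested. A stricter gate held the best unrelated lineage to at most 0.5 of the cell's own, in place of 0.75. With it the mesenchymal fold was 9.71, though cells with markers of another lineage below that limit stayed in.

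Blood endothelial cells had Pdgfa at 92.4 CPM (85.2 to 100.1) in the tenotomy and 18.3 CPM (16.0 to 20.8) in the sham library, a fold of 5.06 (4.33 to 5.92). It was the 1 of 3 measured members past 2-fold upwards there, where 6.97% of genes were and 7.03% were past it downwards. The fold was above 2 in all 4 named endothelial states, though Pdgfa did not count as measured in capillary cells. Venous cells had 125 CPM (103 to 149.6) in tenotomy and 21.0 CPM (10.1 to 38.7) in sham, a fold of 5.94 (3.12 to 12.7). Arterial cells had 133 CPM (107 to 163) in tenotomy and 28.0 CPM (17.6 to 42.5) in sham, a fold of 4.73 (2.94 to 7.91). Sprouting cells, gated on Apln, Esm1 and other tip cell genes, had 131 CPM (115 to 149) in tenotomy and 49.6 CPM (33.9 to 70.0) in sham, a fold of 2.65 (1.83 to 3.96). Capillary cells, the most numerous, had the lowest tenotomy level, 35.2 CPM (27.1 to 44.8) against 15.3 CPM (12.9 to 17.9) in sham, a fold of 2.30 (1.69 to 3.11), which was 1.91 as a mean over cells and 1.73 with UMIs per cell. Of all genes, 7.88% in venous, 7.73% in arterial, 11.1% in sprouting and 3.27% in capillary cells were past 2-fold upwards, and 10%, 7.29%, 11.9% and 3.6% downwards. Macrophage markers summed to 1275 CPM in tenotomy and 143 CPM in sham endothelial cells, 4.50% in tenotomy and 0.543% in sham of their level in macrophages. With the best unrelated lineage held to at most 0.5 of the cell's own, the endothelial fold was 5.19.

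Muscle stem cells, the source of new myonuclei, had Pdgfa at 165 CPM (155 to 175) in the tenotomy and 47.3 CPM (39.7 to 55.9) in the sham library, a fold of 3.48 (2.91 to 4.19), and 2.90 UMIs in tenotomy and 0.325 UMIs in sham cells. A UMI was seen in 70.4% of tenotomy and 18.4% of sham cells, and at 1000 UMIs per cell in 14.4% of tenotomy and 4.95% of sham cells. In this population 29.1% of genes were past 2-fold upwards and 17.1% downwards, and 49.1% of tenotomy but 0.236% of sham cells had cycle transcripts. Tenocytes differed the other way, with 117 CPM (100.4 to 135) in the tenotomy and 206 CPM (192 to 221) in the sham library, a fold of 0.566 (0.479 to 0.665), which is within 2-fold, while 6.76% of genes there were past it upwards and 6.85% downwards. Among myofibre-like cells, 128 in tenotomy and 75 in sham, 48.6% of genes were past 2-fold upwards and 13.2% downwards, and Pdgfa, the member measured there, was within 2-fold, at 1.72 (0.900 to 3.69). Pericytes had 238 CPM (196 to 286) in tenotomy and 173 CPM (149 to 199) in sham, a fold of 1.38 (1.08 to 1.75). Macrophage markers summed to 1446 CPM in tenotomy and 280.3 CPM in sham tenocytes and to 1297 CPM in tenotomy and 91.5 CPM in sham pericytes. Vascular smooth muscle markers summed to 6517 CPM in tenotomy and 2702 CPM in sham pericytes, 62.7% in tenotomy and 8.73% in sham of their sum in their own class, and to 423 CPM in tenotomy and 206 CPM in sham tenocytes. Muscle stem cell markers in pericytes stood at 19.2% in tenotomy and 8.89% in sham of their sum in stem cells. The part of these markers in the folds was not tested. Schwann cells of nerve had the highest Pdgfa level among populations with at least 25 cells, 577 CPM (465 to 707) in 36 tenotomy and 787 CPM (698 to 885) in 65 sham cells, too few for a fold.

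Monocytes and macrophages had Pdgfa at 56.2 CPM (53.6 to 59.0) in the tenotomy and 42.1 CPM (35.3 to 49.8) in the sham library, a fold of 1.34 (1.12 to 1.61). It was the 1 member measured there and was within 2-fold, while 6.26% of genes were past it upwards and 7.35% downwards. Resident macrophages, gated on Lyve1, Folr2 and Timd4 among others, had 65.1 CPM (59.4 to 71.3) in tenotomy and 64.3 CPM (53.3 to 77) in sham, a fold of 1.01 (0.827 to 1.25), with 7.82% of genes past 2-fold upwards and 7.82% downwards. The interval of the resident fold thus included 1. Within the tenotomy library, Ly6c2 monocytes, a recruited cell type, had 15.1 CPM (11.8 to 19.0), Spp1/Gpnmb macrophages 59.7 CPM (55.4 to 64.2), interferon-response macrophages 77.2 CPM (66.1 to 89.8) and cycling macrophages 77.9 CPM (67.9 to 88.8). The resident level was 4.32 (3.37 to 5.60) times the Ly6c2 monocyte level.

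**Figure D4:**
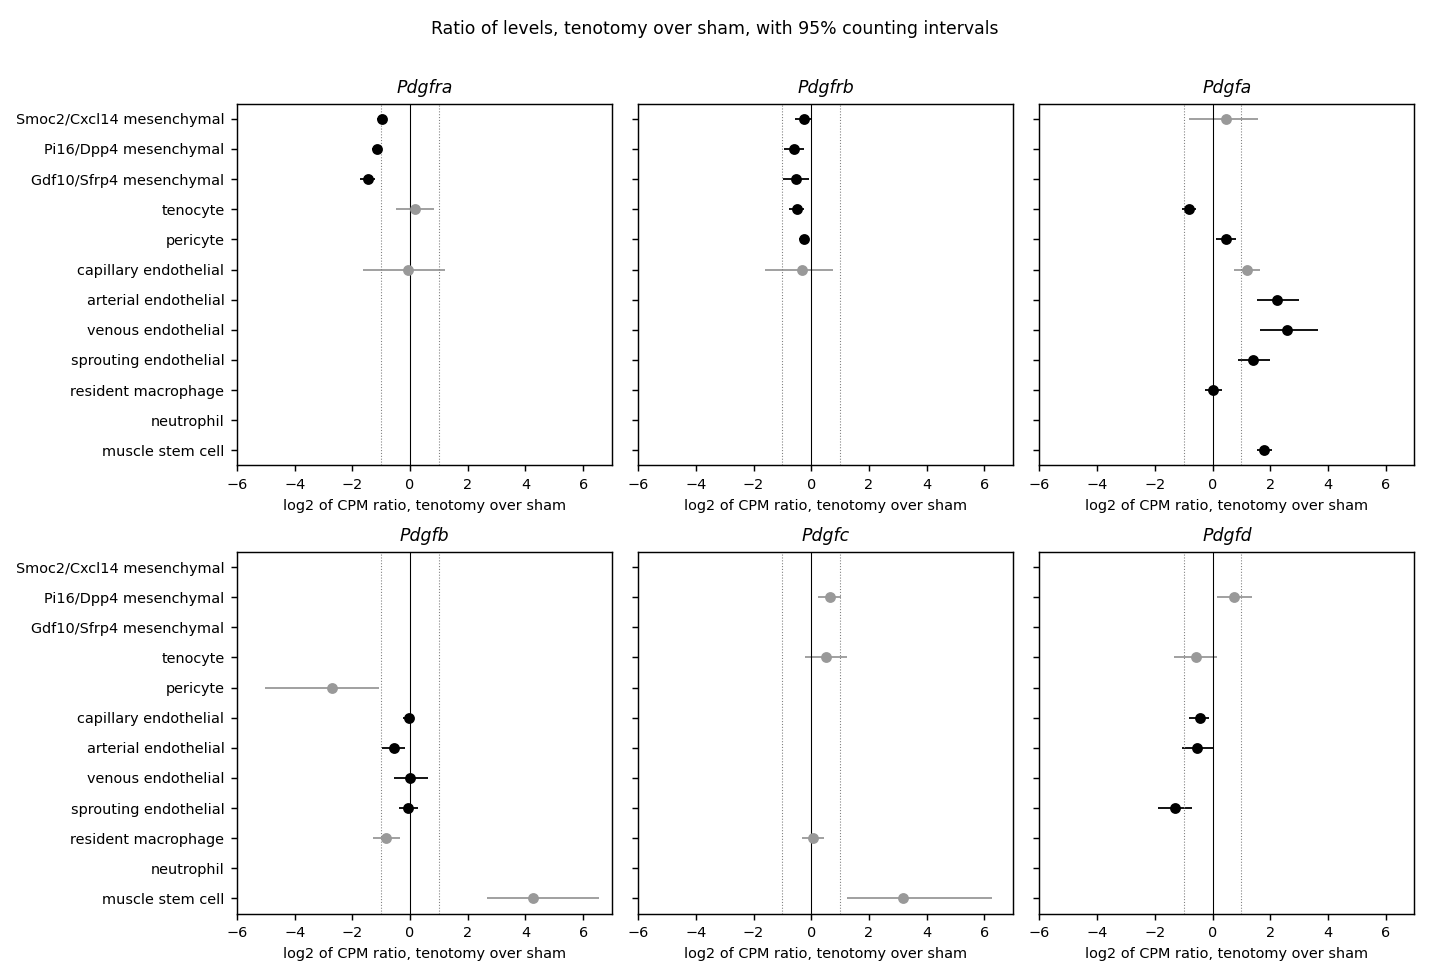
Fold of each gene by population as the log2 of the tenotomy CPM over the sham CPM, with 95% counting intervals, for populations with at least 50 cells in each library and at least 25 UMIs of the gene in one of them; black points mark genes that counted as measured, grey points genes that did not, and dotted lines 2-fold. Pdgfa lies right of 0 in the 4 endothelial states and in muscle stem cells and left of 0 in tenocytes, and Pdgfra lies left of 0 in the 3 mesenchymal states.

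Pdgfb, the gene of the B chain by which endothelium recruits pericytes (ENSMUSG00000000489, mm10 chromosome 15, 79995874 to 80014977, reverse strand), was close between the libraries in blood endothelial cells. These had 142 CPM (133 to 152) in the tenotomy and 164 CPM (157 to 171) in the sham library, a fold of 0.867 (0.802 to 0.938), and 0.605 UMIs in tenotomy and 0.617 UMIs in sham cells. A UMI was seen in 36.0% of tenotomy and 37.0% of sham cells, against 0.990% of tenotomy and 1.33% of sham neutrophils. At 1000 UMIs per cell the shares were 14.5% (12.8 to 16.5) in tenotomy and 14.1% (12.9 to 15.4) in sham and the fold of the thinned level 1.03, so the direction did not hold at equal depth. Capillary cells had 160.1 CPM (142 to 179) in tenotomy and 166 CPM (158 to 174) in sham, sprouting cells 169 CPM (150.5 to 189) in tenotomy and 177 CPM (146 to 212) in sham, and venous cells 82.6 CPM (65.3 to 103) in tenotomy and 82.0 CPM (58.3 to 112) in sham, with overlapping intervals in each. In arterial cells, which line the feeding vessels, the fold interval lay below 1, with 128 CPM (103 to 158) in tenotomy and 189.9 CPM (161 to 223) in sham and a fold of 0.674 (0.512 to 0.885). The venous level was 0.516 (0.397 to 0.664) times the capillary level in the tenotomy and 0.495 (0.351 to 0.680) times in the sham library.

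Outside endothelium Pdgfb was low and counted as measured in no population with a fold, and its folds lay on both sides of 1. Muscle stem cells had 120 UMIs in the tenotomy and 3 UMIs in the sham library, 19.6 CPM (16.3 to 23.4) against 1.03 CPM (0.212 to 3.01), a ratio of 19.1 (6.37 to 93.8). At 1000 UMIs per cell 0.862% (0.178 to 2.50) of tenotomy and 0% (0 to 0.866) of sham stem cells were positive. Macrophage markers summed to 462 CPM in tenotomy and 67.9 CPM in sham stem cells, 1.63% in tenotomy and 0.257% in sham of their macrophage level, and their part in the result was not tested. Monocytes and macrophages had Pdgfb at 15.2 CPM (13.9 to 16.7) in tenotomy and 25.2 CPM (20.04 to 31.4) in sham, a fold of 0.603 (0.476 to 0.774), and resident macrophages 17.4 CPM in tenotomy and 30.8 CPM in sham, a fold of 0.564 (0.409 to 0.786). Pericytes had 3 UMIs in the tenotomy and 44 UMIs in the sham library, 6.26 CPM (1.29 to 18.3) against 41.1 CPM (29.8 to 55.1), a ratio of 0.153 (0.0303 to 0.476). The 13 blood endothelial markers summed to 919 CPM in tenotomy and 3423 CPM in sham pericytes, 9.30% in tenotomy and 27.5% in sham of their endothelial level, and their part in the result was not tested. With populations taken from clusters in place of gates, the pericyte fold was 0.775.

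Pdgfc, the gene of the C chain, a ligand of receptor alpha that is secreted in latent form (ENSMUSG00000028019, mm10 chromosome 3, 81036416 to 81214040, forward strand), was higher in mesenchymal cells of the tenotomy library and close between libraries in resident macrophages. The 250 bases before its start (GRCm38.p6, chr3:81036166-81036415, forward strand, 50.8% G or C) are shown beside those of Pdgfa because both ligand genes were higher in the same mesenchymal lineage. None is exon in the annotation. They hold no GC box, in contrast to the whole Pdgfa window, and no TATA box or AP-1 letters.
Pdgfc: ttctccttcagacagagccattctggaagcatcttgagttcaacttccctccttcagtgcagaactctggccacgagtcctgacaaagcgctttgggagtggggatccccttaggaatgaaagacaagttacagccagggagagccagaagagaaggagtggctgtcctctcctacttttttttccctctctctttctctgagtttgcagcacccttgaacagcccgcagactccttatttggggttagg

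Mesenchymal cells had 42.3 CPM (40.0 to 44.7) in the tenotomy and 8.10 CPM (6.77 to 9.62) in the sham library, a fold of 5.22 (4.35 to 6.30), which did not count as measured because both levels were under 50 CPM. Per cell there were 0.710 UMIs in tenotomy and 0.0673 UMIs in sham, a ratio of 10.5. In the sham library Pi16/Dpp4 cells held 121 of the 130 mesenchymal UMIs. Pdgfc was thus almost a transcript of 1 mesenchymal state there. Pi16/Dpp4 cells had 47.4 CPM (37.9 to 58.6) in the tenotomy and 30.6 CPM (25.4 to 36.6) in the sham library, a fold of 1.55 (1.16 to 2.06). Smoc2/Cxcl14 cells had 0.915 CPM in tenotomy and 0.598 CPM in sham, from 1 UMIs in tenotomy and 5 UMIs in sham, and the Pi16/Dpp4 level was 51.2 (21.4 to 161) times theirs in the sham library. In the tenotomy library Pdgfc was also present in Postn/Tnc cells, at 36.6 CPM (33.3 to 40.2), and in cycling mesenchymal cells, at 55.8 CPM (51.8 to 60.0). At 1000 UMIs per cell 2.59% (1.89 to 3.45) of tenotomy and 0.634% (0.328 to 1.10) of sham mesenchymal cells were positive. Tenocytes had 17 CPM (11.2 to 24.8) in tenotomy and 11.8 CPM (8.60 to 15.9) in sham, a fold of 1.44 (0.856 to 2.37).

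Among monocytes and macrophages, Pdgfc was highest in the resident state. Resident macrophages had 43.0 CPM (38.3 to 48.1) in the tenotomy and 41.6 CPM (32.8 to 52.0) in the sham library, a fold of 1.03 (0.803 to 1.34), with UMIs at 1000 UMIs per cell in 4.83% (3.63 to 6.29) of tenotomy and 4.61% (2.48 to 7.75) of sham cells, against 0% of tenotomy and 0% of sham neutrophils. In the tenotomy library their level was 2.92 (2.42 to 3.53) times that of Spp1/Gpnmb macrophages, at 14.7 CPM (12.7 to 17.1), and 16.0 (9.22 to 30.4) times that of Ly6c2 monocytes, at 2.69 CPM (1.43 to 4.60). Over all monocytes and macrophages the levels were 20.4 CPM in tenotomy and 26.8 CPM in sham, a fold of 0.761 (0.606 to 0.964). Resident cells made up 1105 of the 4779 tenotomy and 292 of the 435 sham cells of this lineage. Muscle stem cells had 6.21 CPM from 38 UMIs in the tenotomy and 0.686 CPM from 2 UMIs in the sham library, and blood endothelium 1.07 CPM in tenotomy and 0.0816 CPM in sham.

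Pdgfd, the gene of the D chain, a ligand of receptor beta (ENSMUSG00000032006, mm10 chromosome 9, 6168584 to 6378850, forward strand), was lower in blood endothelium of the tenotomy library taken as a whole, though not in all of its states. Blood endothelial cells had 38.1 CPM (33.5 to 43.1) in the tenotomy and 61.3 CPM (57.0 to 65.9) in the sham library, a fold of 0.621 (0.536 to 0.718), with UMIs in 13.8% of tenotomy and 18.9% of sham cells and at 1000 UMIs per cell in 3.96% (3.02 to 5.11) of tenotomy and 6.07% (5.26 to 6.96) of sham cells. It was highest in arterial cells, with 73.6 CPM (54.6 to 97.1) in tenotomy and 106 CPM (84.3 to 131) in sham, a fold of 0.696 (0.480 to 1.0), an interval that reached 1. Sprouting cells had 29.9 CPM (22.5 to 39.0) in tenotomy and 74.4 CPM (54.8 to 98.6) in sham, a fold of 0.402 (0.268 to 0.606), past 2-fold downwards as were 11.9% of genes measured there. Capillary cells had 42.7 CPM (33.8 to 53.3) in tenotomy and 58.2 CPM (53.5 to 63.3) in sham, a fold of 0.734 (0.572 to 0.930). Venous cells went the other way, with 23.3 CPM (14.6 to 35.3) in tenotomy and 16.8 CPM (7.26 to 33.1) in sham from 22 UMIs in tenotomy and 8 UMIs in sham, and a fold of 1.38 (0.594 to 3.60) whose interval included 1. The venous level was 0.316 (0.182 to 0.532) times the arterial level in the tenotomy and 0.159 (0.0664 to 0.328) times in the sham library. Pdgfd thus had an arterial to venous order in both. In the mesenchymal lineage it was highest in Pi16/Dpp4 cells, with 23.2 CPM (16.7 to 31.3) in the tenotomy and 13.7 CPM (10.3 to 17.8) in the sham library, a fold of 1.69 (1.10 to 2.58), while Smoc2/Cxcl14 cells had 0.915 CPM in tenotomy and 1.55 CPM in sham. Tenocytes had 13.2 CPM in tenotomy and 19.6 CPM in sham, a fold of 0.674 (0.394 to 1.11).

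Ligand and receptor UMIs were found in the same mesenchymal cells. Both Pdgfa and Pdgfra were seen in 23.1% (21.2 to 25.2) of tenotomy and 3.26% (2.52 to 4.16) of sham mesenchymal cells, and both Pdgfc and Pdgfra in 22.1% (20.2 to 24.1) of tenotomy and 3.83% (3.02 to 4.79) of sham cells. Among Pdgfa-positive mesenchymal cells 74.1% in the tenotomy and 90.0% in the sham library also had a Pdgfra UMI, close to the 72.2% of all tenotomy and 90.7% of all sham mesenchymal cells. Receptor alpha was thus about as frequent in cells with the A chain as in the lineage. Both ligands were seen in 16.2% (14.5 to 18.0) of tenotomy and 0.104% (0.0125 to 0.374) of sham cells. By state, Pdgfa with Pdgfra was seen in 29.9% of Postn/Tnc and 38.5% of cycling cells of the tenotomy library. In Smoc2/Cxcl14 cells the pair was seen in 3.01% of tenotomy and 2.87% of sham cells, and in Pi16/Dpp4 cells in 4.95% of tenotomy and 2.88% of sham cells. Pi16/Dpp4 cells had Pdgfc with Pdgfra in 14.9% of tenotomy and 17.5% of sham cells, and pericytes had Pdgfa with Pdgfrb in 32.7% of tenotomy and 40.4% of sham cells. Deeper cells show more pairs, and these shares were not thinned.

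The wider pathway was described with lists of genes, each read beside the share of all measured genes past 2-fold. The lists were read in CPM only. Tenotomy mesenchymal cells held more UMIs, so per cell each mesenchymal ratio lies above its fold. Of 17 early response genes that PDGF can induce in cultured fibroblasts, 15 were measured in mesenchymal cells, 5 past 2-fold upwards and 9 downwards, with a median log2 fold of -1.83. Of all genes measured there, 15.9% were past 2-fold upwards and 15.9% downwards, with a median of 0.09. Such genes also answer many other stimuli. The transcription factor gene Fos had 172 CPM in tenotomy and 1282 CPM in sham cells, a fold of 0.134 (0.130 to 0.139). The folds of Egr1, Atf3 and Junb, also transcription factor genes, were 0.136 (0.133 to 0.139), 0.193 (0.184 to 0.202) and 0.218 (0.215 to 0.222). Higher were the chemokine gene Ccl2, with a fold of 3.52 (3.43 to 3.62), and Egr3, Fosl1 and Ier3, with folds of 3.45 (3.16 to 3.77), 2.31 (2.09 to 2.57) and 2.32 (2.26 to 2.38). The list leaned the same way in the other lineages. In pericytes 13 were measured, 3 past 2-fold upwards and 6 downwards, with a median of -0.95, and the chemokine gene Ccl7 had the largest fold, 4.79 (3.39 to 6.84). In blood endothelium 14 were measured, 2 past 2-fold upwards and 7 downwards, with a median of -1.06, and those higher were Myc, with a fold of 4.55 (3.86 to 5.39), and Ccl2, with 6.51 (5.44 to 7.84). In monocytes and macrophages 12 were measured, 0 past 2-fold upwards and 9 downwards, with a median of -1.24. Of all genes, 8.54% in pericytes, 6.97% in endothelium and 6.26% in monocytes and macrophages were past 2-fold upwards, and 11.8%, 7.03% and 7.35% downwards. Their medians were -0.06, 0.01 and 0.09.

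Of 9 genes for ligand processing, co-receptors and matrix partners, 8 were measured in mesenchymal cells, 1 past 2-fold upwards and 3 downwards, beside 15.9% and 15.9% of all genes. Sparc, whose matrix protein binds PDGF, was higher, at 10009.6 CPM in tenotomy and 3747 CPM in sham cells, a fold of 2.67 (2.65 to 2.70). Lower in CPM were Pcsk6, a proprotein convertase gene, with a fold of 0.156 (0.149 to 0.163), Plau, the urokinase gene, with 0.283 (0.267 to 0.298), and Lrp1, a co-receptor gene, with 0.460 (0.449 to 0.471). Lrp1 had 12200 UMIs in 1767 tenotomy and 14339 UMIs in 1931 sham cells, so per cell it was close between the libraries. Sparc was also higher in pericytes, with a fold of 2.35 (2.23 to 2.46), and in endothelium, with 2.87 (2.83 to 2.92), and lower in monocytes and macrophages, with 0.351 (0.323 to 0.382). Of 34 signalling genes, 19 were measured in mesenchymal cells and 16 lay within 2-fold, so the 2 past it upwards and 1 downwards were no larger a share than the 15.9% and 15.9% of all genes. Hras, a small GTPase gene, and Map2k2, a kinase gene, were higher, with folds of 2.03 (1.90 to 2.18) and 2.15 (2.01 to 2.29), and Pik3r1, a regulatory subunit gene of phosphoinositide 3-kinase, was lower, with 0.221 (0.206 to 0.238). After division by the median fold of all genes, 1 signalling gene was past 2-fold upwards and 4 were past it downwards. In endothelium 20 of these were measured and 0 were past 2-fold in either direction, where 6.97% of all genes were upwards and 7.03% downwards. In pericytes 22 were measured, with Gab1 and Map2k1 lower, at 0.346 (0.177 to 0.625) and 0.363 (0.179 to 0.672), beside 11.8% of all genes. In monocytes and macrophages the adaptor gene Gab1 was the 1 of 20 past 2-fold, with a fold of 4.01 (3.12 to 5.25), beside 6.26% of all genes past it upwards. Of 14 negative regulators, 9 were measured in mesenchymal cells, 7 within 2-fold and 2 past it downwards, beside 15.9% of all genes. These were the feedback inhibitor genes Spry1 and Spry2, with folds of 0.192 (0.175 to 0.211) and 0.499 (0.470 to 0.529). Spry2 had 2169 UMIs in 1767 tenotomy and 2352 UMIs in 1931 sham cells, so per cell it was close between the libraries. In pericytes 11 were measured, 1 past 2-fold upwards and 3 downwards, beside 8.54% and 11.8% of all genes. The phosphatase gene Ptpn1 was higher there, with a fold of 2.60 (1.88 to 3.60), while Spry1, the phosphatase gene Dusp6 and the feedback inhibitor gene Spred2 were lower, with 0.418 (0.295 to 0.581), 0.291 (0.134 to 0.564) and 0.492 (0.287 to 0.804). In endothelium 2 of 9 were past 2-fold downwards, beside 7.03% of all genes, and these were Spry1, with 0.291 (0.256 to 0.330), and Spry4, with 0.469 (0.410 to 0.534). In monocytes and macrophages all 7 measured were within 2-fold. Among Kit, Csf1r and Flt3, the genes of related receptor kinases, Csf1r was measured, in monocytes and macrophages, with a fold of 0.637. Csf1r is itself a marker of that gate, so this fold was read in cells selected partly on the gene.

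**Figure D5:**
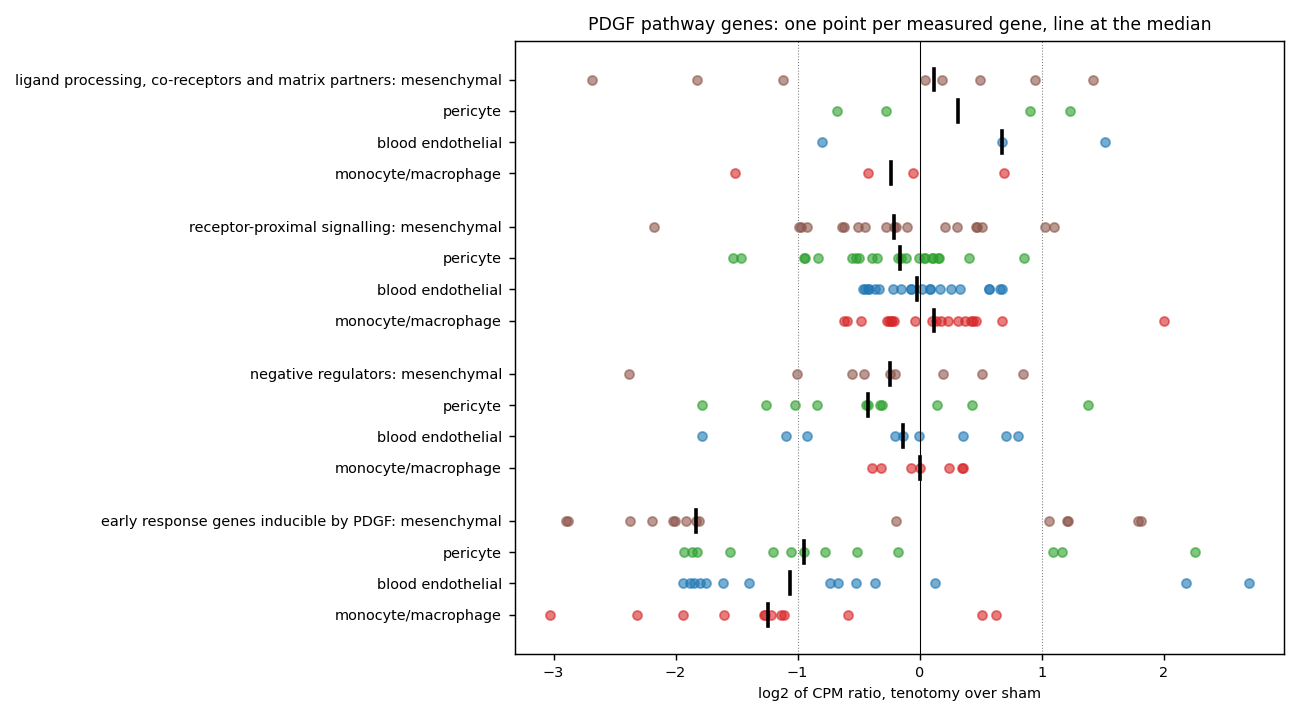
Log2 of the tenotomy CPM over the sham CPM of every measured gene of 4 PDGF pathway lists in 4 lineages, a point per gene, a black line at the median and dotted lines at 2-fold. The early response genes lie mostly left of 0, with medians of -1.83 in mesenchymal cells, -0.95 in pericytes, -1.06 in endothelium and -1.24 in monocytes and macrophages, while the signalling genes centre near 0.

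The genes whose pattern was most like each member were sought over 43 combinations of population and library among 4947 genes, by Pearson correlation of log2(CPM + 10). These points share libraries and nested cell states, so the values are descriptions. Closest to Pdgfra were Dpep1 (r = 0.97), Podn (0.96) and Entpd2 (0.96), and closest to Pdgfrb were Naalad2 (0.95), Cygb (0.92) and Dtx3 (0.89). Pdgfb lay near Jag2 (0.93), Afap1l1 (0.92) and Cd300lg (0.92), and Pdgfd near Fgd5 (0.91), Afdn (0.91) and Ptprm (0.90), all with their highest level in an endothelial state. The closest genes to Pdgfa were Eif1b (0.66), Mtss1l (0.63) and Utp11 (0.61), and to Pdgfc Ap2a2 (0.73), Ap2m1 (0.72) and Sulf2 (0.70), all with lower correlations.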

How the data were processed

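The deposited tables hold raw UMI counts per gene and cell barcode, whole numbers with no normalization, and the submitters' processing notes name Cell Ranger 4.0.0 and mm10. Libraries were 10x 3' v3.1, per the labels. Totals were 94556283 UMIs in 11950 tenotomy and 47781353 UMIs in 8463 sham barcodes.

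Cells with fewer than 300 genes or 500 UMIs, or with over 10% mitochondrial UMIs, were left out. Doublets were removed with scrublet in scanpy 1.11.5, 320 (2.85%) in tenotomy and 190 (2.46%) in sham, at the automatic tenotomy threshold of 0.212, since the automatic sham threshold called 1 cell. A cell was gated to the lineage with the highest share of its markers above the library mean, with at least 3 such markers and the best unrelated lineage at no more than 0.75 of it. States needed at least 2 markers, and cycling cells at least 3 of 12 cycle genes. The gate's scoring was set after the data were seen, and 95.7% of gated cells lay in a cluster with the same majority among 35 Leiden clusters. Intervals are exact (Poisson for CPM, Clopper-Pearson for shares, conditional binomial for folds; scipy 1.17.1), and with a single pool per group no model or test across samples was run. PCR and pooling add error that intervals and floors, at 3 counts, do not cover. From each pathway list, up to 4 measured genes per direction were named among those at least 2-fold apart, by interval. The members and lists were chosen with earlier results of these data known. Alternatives were other doublet and mitochondrial limits, clusters for gates, stricter markers, thinning, means over cells, no cycling cells, median scaling and no CPM minimum. Promoter windows are from RefSeq, and 4 of the 6 members matched. The fold and its interval were tested on Poisson sums simulated from mesenchymal and pericyte means, with no added variation between cells or libraries. Gates, thinning, doublet calls and clusters were not tested in this way.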

Additional observations from a re-analysis of the deposited data

Results flagged for a closer look

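No difference between populations below was tested, since each group is 1 library; each pair of folds is listed because the counting intervals lie on opposite sides of 1. Pdgfa was higher in tenotomy mesenchymal cells, with a fold of 9.63 (7.85 to 11.9), and lower in tenotomy tenocytes, with a fold of 0.566 (0.479 to 0.665). Pdgfb was higher in tenotomy muscle stem cells, with a fold of 19.1 (6.37 to 93.8), from 120 UMIs in the tenotomy and 3 in the sham library. In tenotomy pericytes it was lower, with a fold of 0.153 (0.0303 to 0.476), from 3 in tenotomy and 44 in sham UMIs. Of measured genes, 29.1% were past 2-fold upwards in stem cells and 11.8% downwards in pericytes. Pdgfc was higher in tenotomy mesenchymal cells, with a fold of 5.22 (4.35 to 6.30), and lower over all tenotomy monocytes and macrophages, with a fold of 0.761 (0.606 to 0.964). Pdgfd was higher in tenotomy Pi16/Dpp4 mesenchymal cells, with a fold of 1.69 (1.10 to 2.58), and lower in tenotomy sprouting endothelial cells, with a fold of 0.402 (0.268 to 0.606). Pdgfb and Pdgfc in the populations named here, and Pdgfd in Pi16/Dpp4 cells, did not count as measured.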

How the results depend on the processing

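No paired analysis was possible because each group is 1 pooled library with no p-value. Over 17 folds and 164 values under other settings, 133 stayed within counting error, 29 moved and 2 lay on the other side of 1. Those on the other side were Pdgfrb in mesenchymal cells, at 1.15 with UMIs per cell in place of CPM, a setting added after the data were seen, and Pdgfb in blood endothelium, at 1.03 when thinned. The cause was not tested. With UMIs per cell, the mesenchymal ratios were 0.493 for Pdgfra, 19.5 for Pdgfa and 10.5 for Pdgfc, and Pdgfrb in pericytes was 0.713 and Pdgfb in endothelium 0.981. As a mean over cells, the mesenchymal folds were 0.314 for Pdgfra, 0.650 for Pdgfrb and 6.43 for Pdgfa, and Pdgfa was 3.91 in endothelium and 1.62 in monocytes and macrophages. Thinned to 1000 UMIs, the mesenchymal folds were 0.312 for Pdgfra, 0.683 for Pdgfrb, 5.58 for Pdgfa and 4.27 for Pdgfc, and Pdgfa in endothelium was 3.92. Without cycling cells, mesenchymal Pdgfra was 0.282 and Pdgfc 3.93. The Smoc2/Cxcl14 and Pi16/Dpp4 states hold no cycling cells by definition. Their Pdgfra folds in this setting, 0.503 and 0.449, could not move and are among the 133. Mesenchymal Pdgfra was 0.229 after division by the median fold and 0.254 with the best unrelated lineage held to at most 0.5. Muscle stem cell Pdgfa was 8.91 with UMIs per cell. Of 60 shares, 40 moved when thinned or with clusters in place of gates, 35 of them downwards. Thinning lowers a share by design, so these downward moves were largely fixed in advance. Of 80 list counts, 16 were marked as moved. Some other changes were not, such as early response genes higher in mesenchymal cells, from 5 to 4 after division by the median fold. With clusters in place of gates, which count other cells, pericyte Pdgfb was 0.775, at 42.7 CPM in tenotomy and 55.1 CPM in sham. Depth limits shares near 1 UMI and folds from few UMIs.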

Other observations

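Cells that no gate placed, 746 in the tenotomy and 519 in the sham library, also held member transcripts. Their Pdgfrb level was 58.8 CPM (52.6 to 65.4) in tenotomy and 164 CPM (149.6 to 179.8) in sham, their Pdgfra level 20.2 CPM (16.6 to 24.2) in tenotomy and 88.4 CPM (77.8 to 100.1) in sham, and their Pdgfc level 25.5 CPM in tenotomy and 3.52 CPM in sham.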
